A study of Mus musculus with 13 samples.

Results

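The 8 long non-coding RNA genes described here were followed in mouse oocytes after γ-irradiation. They were chosen by name from a list of known RNAs of stress and imprinting, with earlier results of these data known, and are 8 of the 49585 genes summed in these data: Trp53cor1, Pvt1, Neat1, Malat1, Meg3, H19, Gas5 and Snhg1. All 8 had reads in each of the 13 libraries and passed the filter on low counts in each comparison. Ovaries of 5-day-old (P5) CD-1 mice were cultured overnight and received 0.5 Gy or, in a separate set, 0.2 Gy from a caesium source, and the oocytes were separated from the follicular cells by trypsin and centrifugation. The libraries of 0.5 Gy comprised 2 each at 0 h (which the study describes as before irradiation), 1 h and 4 h after irradiation, and 1 each at 2.5 and 6 h. The libraries of 0.2 Gy comprised 1 at each of the same 5 time points. The animals were wild-type mice of an outbred stock with no transgene named. For each time point 4 ovaries were used, and the labels assign the libraries of 0.5 Gy to generations named first and second, and those of 0.2 Gy to another generation. The dose and this generation therefore cannot be told apart. At 0.5 Gy the single libraries of 2.5 and 6 h are both of the second generation, so that the generations are spread unevenly over the times. Nothing in the labels says that replicates came from separate cultures, so p-values measure the spread between these libraries, which may be technical.

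Long non-coding RNAs are transcribed and processed like messenger RNAs but act as RNA. Trp53cor1, also known as lincRNA-p21, lies beside Cdkn1a, the gene of the p21 cell cycle inhibitor, and it and Pvt1 are known targets of the tumor suppressor p53. In resting oocytes the related factor TAp63α takes the place of p53 as the guardian against DNA damage. Neat1 is the scaffold of paraspeckles, which are nuclear bodies that form under stress, and Malat1 is an abundant RNA of nuclear speckles, where splicing factors gather. H19 and Meg3 are imprinted and are transcribed from the maternal chromosome, beside the paternally expressed growth genes Igf2 and Dlk1. Gas5 and Snhg1 carry small nucleolar RNAs (snoRNAs) in their introns, and their spliced RNAs are degraded when they are translated.

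The libraries held between 15709549 and 30430104 estimated reads. The summed levels of 10 oocyte markers ranged from 3092 to 4736 CPM (read counts relative to the library size, scaled with edgeR's TMM method) and none of these markers was at 0 in all libraries. Markers of other cells were also present. Those of granulosa cells summed to between 1271 and 2290 CPM, those of stroma to between 2124 and 4085 CPM and those of red blood cells to between 861.4 and 6144 CPM. Granulocyte markers summed to 455.3 CPM in replicate 2 of 0 h at 0.5 Gy, the library with the fewest reads, and to at most 16.0 CPM in the other 12 libraries. In such bulk samples, fewer cells of a type and less RNA per cell cannot be told apart.

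Per length, as TPM (reads relative to transcript length and library size) summed over the transcripts of a gene, the 8 RNAs spanned more than 3 orders of magnitude. Malat1 was the most abundant, with a median of 877.1 TPM over the 13 libraries and a range from 470.2 to 1636 TPM. Gas5 followed with a median of 590.4 TPM and a range from 468.5 to 757.4 TPM, which overlapped that of Malat1. Snhg1, at a median of 65.5 TPM, lay between 53.6 and 98.2 TPM and overlapped neither neighbor in this order. H19 and Meg3 could not be placed in order, with medians of 22.2 and 22.0 TPM and overlapping ranges. Pvt1 and Neat1 overlapped as well, with medians of 1.61 and 1.23 TPM. Trp53cor1 was the rarest, at a median of 0.112 TPM and between 7 and 85 estimated reads per library, and its range from 0.0604 to 0.341 TPM lay below those of all others.

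**Figure D1:**
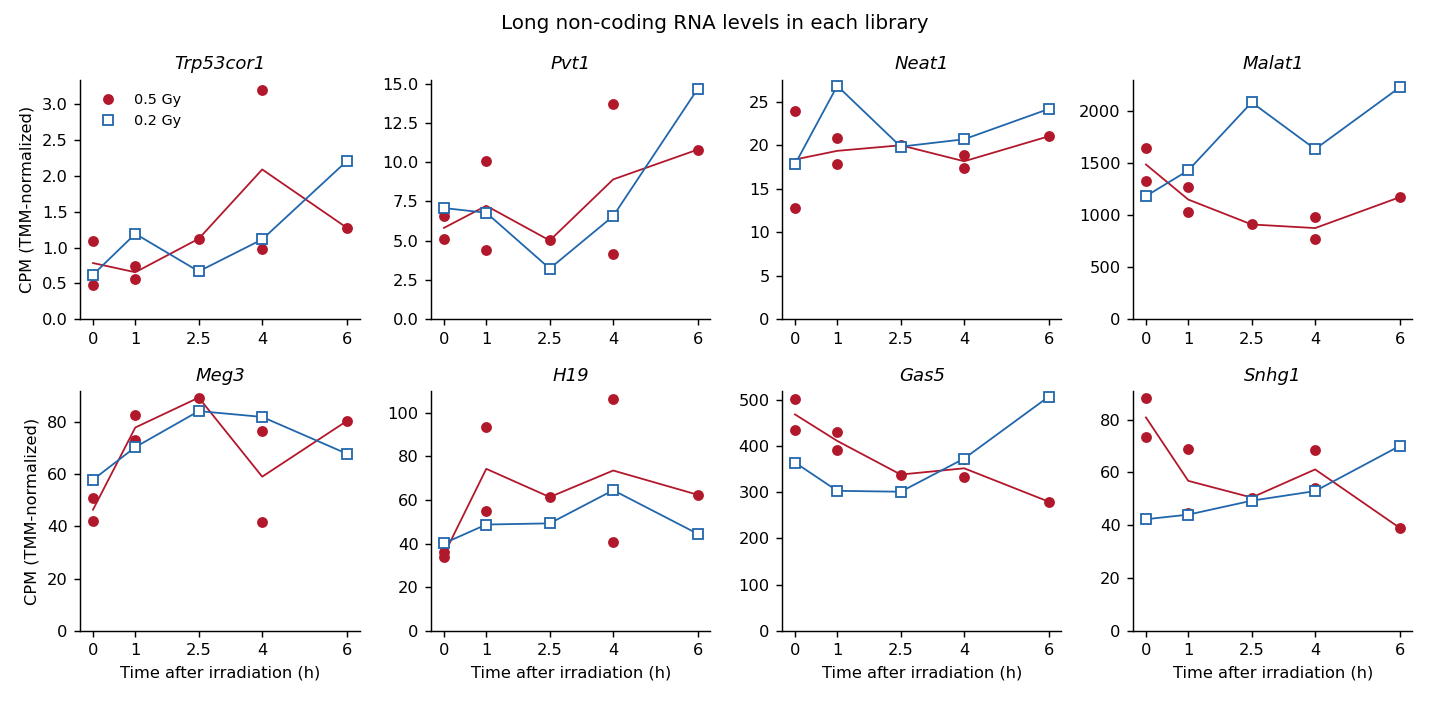
Each panel plots 1 RNA, with the time after irradiation in hours on the x axis and the TMM-normalized level in CPM on the y axis, which starts at 0. Filled circles are the 8 libraries of 0.5 Gy, open squares the 5 libraries of 0.2 Gy, and lines join the means of each time point; Malat1, Gas5 and Snhg1 end lower than they began at 0.5 Gy and higher at 0.2 Gy.

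The first question was whether any of these RNAs changed after 0.5 Gy. In edgeR's quasi-likelihood test against 0 h, none of the 8 was called (log2 fold change over 1 in size, with an adjusted p under 0.05) at 1, 2.5, 4 or 6 h, nor by DESeq2. The background was the same for edgeR, since 0% of the 28468 genes tested were called by it at each of these times. For DESeq2 it was not, with 31 of 27511 genes called at 1 h and 141 of 22113 at 4 h. The unadjusted p was under 0.05 for 2, 1, 2 and 2 of the 8 RNAs and for 3.98%, 5.59%, 5.82% and 5.94% of all genes. At 1 h both replicates of Malat1, Gas5 and Snhg1 lay below those of 0 h, as did those of 15.1% of all genes, and at 4 h the same 3 RNAs did so, with 17.5% of all genes. The late libraries of 2.5, 4 and 6 h were then set against the early ones of 0 and 1 h, 4 against 4, although libraries of different times do not replicate 1 condition. Again none of the 8 was called by edgeR or DESeq2. Over all genes, edgeR called 0.128% of 22588 and DESeq2 called 251 of 26489. The unadjusted p was under 0.05 for 3 of the 8 RNAs, and it was under 0.05 for 9.06% of all genes.

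The same libraries held a marked response of coding genes. All 12 p53 target genes listed for comparison were higher in the late libraries of 0.5 Gy. Of these, 7 were called by edgeR, where 0.128% of the 22588 genes tested were called. Cdkn1a went from 6.46 ± 3.56 to 65.0 ± 20.5 CPM (SD, n = 4 each), a log2 fold change of 3.32 (SE 0.36). Mdm2, the gene of the ubiquitin ligase that degrades p53, went from 62.7 ± 9.79 to 391 ± 169 CPM (SD, n = 4 each), a log2 fold change of 2.63 (SE 0.29). The median over this list was 1.68, against 0.12 over the 8 long non-coding RNAs and -0.02 over all genes tested.

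**Figure D2:**
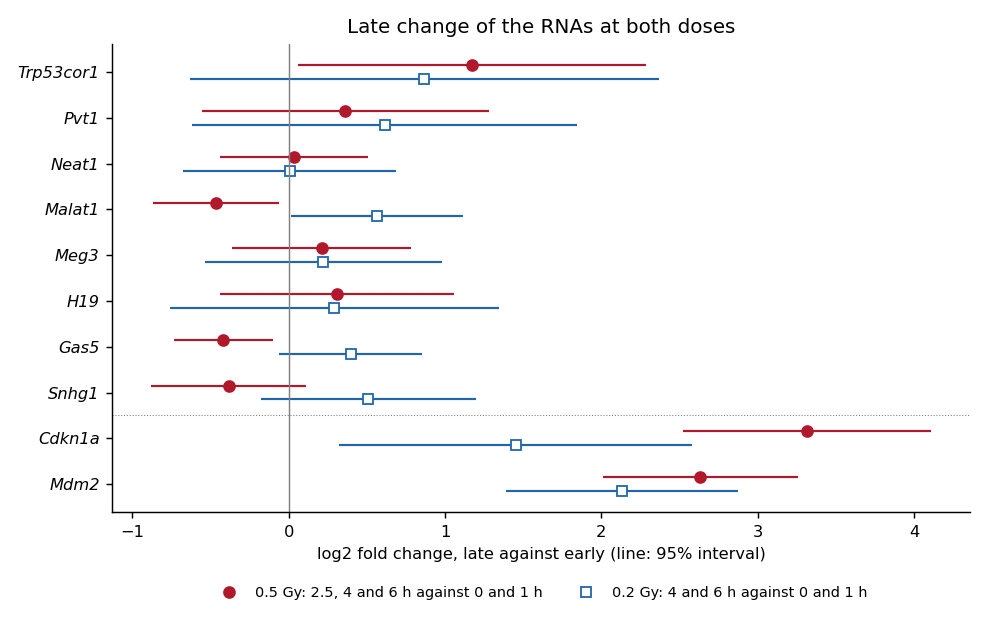
The x axis gives the log2 fold change of late against early libraries and each row is 1 gene, with filled circles for 0.5 Gy (2.5, 4 and 6 h against 0 and 1 h), open squares for 0.2 Gy (4 and 6 h against 0 and 1 h) and lines for the 95% interval. Cdkn1a and Mdm2, below the dotted line, lie at 3.32 and 2.63 at 0.5 Gy, while the 8 long non-coding RNAs lie between -0.47 and 1.17.

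Trp53cor1 had the largest late difference of the 8 RNAs at 0.5 Gy. Its gene lies on the minus strand of chr17:29057430-29079179 (GRCm38), with 11.8 kb between it and Cdkn1a on the plus strand. At 0.5 Gy it measured 1.09 and 0.475 CPM at 0 h, 0.566 and 0.743 CPM at 1 h, 1.12 CPM at 2.5 h, 0.974 and 3.21 CPM at 4 h and 1.28 CPM at 6 h. The 4 h value of replicate 2 stood above all others, and the early and late libraries overlapped by the first 0 h library. The log2 fold change of late against early was 1.17 (SE 0.51, 95% interval 0.06 to 2.29) and did not pass the test (edgeR adjusted p = 0.522). Without replicate 2 of 4 h it was 0.63. In this comparison Cdkn1a, its neighbor, differed by more, with a 95% interval from 2.52 to 4.11.

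At 0.2 Gy Trp53cor1 measured 0.620 CPM at 0 h and 1.19, 0.667, 1.11 and 2.21 CPM at the later time points. The 6 h library was the highest, while the 4 h library lay below the 1 h library. The tests at 0.2 Gy used 1 fit of both doses at 0, 1, 4 and 6 h. Their SE and p-values therefore share the spread of the 0.5 Gy libraries. The difference of 4 and 6 h against 0 and 1 h was 0.87 (SE 0.69, log2) and was not called (edgeR adjusted p = 0.801), and it was 0.31 without the 6 h library. Averaged over both doses, with 5 late and 6 early libraries, it was 1.09 (SE 0.44, 95% interval 0.14 to 2.04). This also missed the threshold (edgeR adjusted p = 0.587), and it was 0.75 without replicate 2 of 4 h at 0.5 Gy. In this average none of the 8 RNAs was called by edgeR or DESeq2 and 1 had an unadjusted p under 0.05 by edgeR. Over all genes, edgeR called 0.163% of 28162 and 7.89% had such a p, while DESeq2 called 189 of 25394. No RNA of the 8 separated the late from the early libraries of both doses, which 0.597% of the genes did upwards and 0.281% downwards.

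The reads behind Trp53cor1 were few, and part of its annotated sequence is shared with a gene on the opposite strand. The sequence of the transcript in the deposited tables has 2956 bases and another version than in the GENCODE annotation used here, where it has 3218 bases. Of the 3770 distinct 30-base words of the gene in that annotation, as long as the reads, 41.2% also occur in other genes. Of these words, 1345 occur in AC167363.1, an overlapping long non-coding RNA on the opposite strand that is not a row of the tables, and genes elsewhere share 0.371% of the words. The library kit is not stated to keep the strand, so the counts of Trp53cor1 are uncertain. The word with the most other genes, 2731, is a run of a dinucleotide repeat. It is shown in capitals with its flanks (chr17:29058418-29058507, minus strand), because reads from it would fit many genes.

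Trp53cor1, bases 2141 to 2230: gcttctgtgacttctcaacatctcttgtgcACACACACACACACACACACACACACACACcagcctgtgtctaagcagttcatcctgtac

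Pvt1, which lies 47.6 kb from the oncogene Myc on the plus strand of chr15:62037986-62378096, had its highest and its lowest library of 0.5 Gy at the same time point. At 0.5 Gy its levels were 6.55 and 5.09 CPM at 0 h, 10.1 and 4.39 CPM at 1 h, 5.01 CPM at 2.5 h, 4.13 and 13.7 CPM at 4 h and 10.8 CPM at 6 h. Replicate 2 of 4 h was the highest library, as for Trp53cor1, and replicate 1 of 4 h the lowest. The late difference was 0.36 (SE 0.42, 95% interval -0.56 to 1.28, log2; edgeR adjusted p = 0.835) and was 0.03 without replicate 2 of 4 h. At 0.2 Gy Pvt1 measured 7.08, 6.78, 3.22, 6.57 and 14.7 CPM over the 5 time points, again with the highest value at 6 h and a difference of 0.61 (SE 0.57; edgeR adjusted p = 0.831). Myc measured 26.8 ± 4.79 CPM in the early and 21.0 ± 9.31 CPM in the late libraries of 0.5 Gy (SD, n = 4 each), a log2 difference of -0.36 (SE 0.29) that was not called. For Pvt1 and Myc alike, the early and late libraries overlapped. Both Trp53cor1 and Pvt1 had their highest level of 0.5 Gy in the same library, in which the 12 p53 target genes also had their highest sum, 1486 CPM. At 0.2 Gy the highest level of both fell in the 6 h library, where that sum was 687.7 CPM, against 699.5 CPM at 4 h. The granulosa markers also had their highest sum of each dose in these libraries, 2202 CPM at 0.5 Gy and 2290 CPM at 0.2 Gy. The red blood cell markers had theirs in that library of 0.5 Gy, 6144 CPM, but not at 6 h of 0.2 Gy. In the same libraries the stroma markers were lowest of 0.5 Gy, at 2495 CPM, and highest of 0.2 Gy, at 3574 CPM. The part of these other cells in the values of Trp53cor1 and Pvt1 was not tested.

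Neat1 showed the smallest differences of all. It is transcribed from the minus strand of chr19:5824708-5845478 and is separated from Malat1 by 22.0 kb. At 0.5 Gy it measured 24.0 and 12.8 CPM at 0 h, 20.9 and 17.8 CPM at 1 h, 20.02 CPM at 2.5 h, 18.9 and 17.4 CPM at 4 h and 21.1 CPM at 6 h. The 2 libraries of 0 h were the highest and the lowest of this dose, with all others between them. The late difference was 0.03 (SE 0.22, 95% interval -0.44 to 0.51, log2; edgeR adjusted p = 0.975). Leaving out replicate 2 of 0 h gave -0.11, and leaving out the library of 6 h gave -0.0071. At 0.2 Gy, where Neat1 lay between 17.8 and 26.9 CPM, the difference was 0.01 (SE 0.32, 95% interval -0.68 to 0.69). Of the 12 genes of paraspeckle proteins, 0 were called by edgeR at either dose, and 0 at 0.5 Gy and 3 at 0.2 Gy had an unadjusted p under 0.05. The median of their differences was -0.01 at 0.5 Gy and 0.25 at 0.2 Gy.

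Malat1 gave late differences of opposite sign at the 2 doses. It lies on the minus strand of chr19:5795690-5802672. At 0.5 Gy it measured 1322 and 1647 CPM at 0 h, 1029.9 and 1267 CPM at 1 h, 909 CPM at 2.5 h, 983 and 766 CPM at 4 h and 1171 CPM at 6 h. The highest library was replicate 2 of 0 h, the one with granulocyte markers, and the 6 h library lay within the range of the early ones. The late difference was -0.47 (SE 0.18, 95% interval -0.87 to -0.06, log2; edgeR unadjusted p = 0.0266, adjusted p = 0.489), and it was -0.33 without replicate 2 of 0 h. At 4 h against 0 h the difference was -0.74 (SE 0.25; edgeR adjusted p = 0.825).

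At 0.2 Gy Malat1 measured 1181, 1428, 2081, 1632 and 2225.5 CPM over the 5 time points. The 4 and 6 h libraries lay above those of 0 and 1 h, as they did for 20.2% of the 28162 genes tested. The 2.5 h library, which was not part of that comparison, also lay above those of 0 and 1 h. The difference of 4 and 6 h against 0 and 1 h was 0.56 (SE 0.25, 95% interval 0.01 to 1.11; edgeR adjusted p = 0.681), and it was 0.33 without the 6 h library. The change at 0.2 Gy minus that at 0.5 Gy was 1.00 (SE 0.32, 95% interval 0.31 to 1.69). This difference between the doses was not called (edgeR unadjusted p = 0.00837, adjusted p = 0.539). Over all times Malat1 was higher at 0.2 Gy, at 1709.6 ± 438 CPM (SD, n = 5) against 1137 ± 277 CPM (SD, n = 8). The log2 difference with the time point in the model was 0.58 (SE 0.19, 95% interval 0.16 to 0.99; edgeR adjusted p = 0.331). None of the 8 RNAs was called in this comparison by edgeR or DESeq2 and 1 had an unadjusted p under 0.05 by edgeR. Over all genes, edgeR called 0.00351% of 28493 and 11.5% had such a p, while DESeq2 called 222 of 22786. The libraries of the doses overlapped for all 8 RNAs, while 0.548% of the genes were higher and 0.302% lower at 0.2 Gy without overlap. Of 10 nuclear speckle protein genes, among them the splicing factor genes Srsf1 to Srsf3, 0 were called by edgeR at either dose, and 2 at 0.5 Gy and 3 at 0.2 Gy had an unadjusted p under 0.05. All 10 had negative differences at 0.5 Gy, with a median of -0.22, and all 10 had positive ones at 0.2 Gy, with a median of 0.38. The stroma markers showed the same signs, with 9 of 10 lower in the late libraries of 0.5 Gy (median -0.21) and 9 of 10 higher in those of 0.2 Gy (median 0.53), none of them called. Red blood cell markers were higher for 5 of 6 at each dose. Those of granulosa cells were higher for 5 of 10 at 0.5 Gy and for 9 of 10 at 0.2 Gy. The part of these other cells in the values of Malat1 was not tested.

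Reads of Malat1 and Neat1 were divided between a long and a short transcript in each gene. Of the Malat1 reads, 63.8% were assigned to Malat1-203, a spliced transcript of 485 bases, and 36.2% to Malat1-201, of 6983 bases. The first 436 bases of Malat1-203, which are 89.9% of its length, are bases 2 to 437 of Malat1-201. Only 25 of its 456 words of 30 bases occur in no other transcript, against 5131 of 6954 words of Malat1-201. Gm37376, an overlapping gene on the opposite strand without counts in these data, holds 424 of the 30-base words of Malat1. The split is an estimate from reads over both Malat1 transcripts. The number of reads across the point where their sequences part was not tested. Lower case marks the last shared bases and capitals the bases that follow, on the minus strand of chr19 between 5801935 and 5802265.
Malat1-203: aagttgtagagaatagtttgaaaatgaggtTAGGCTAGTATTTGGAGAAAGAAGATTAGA
Malat1-201: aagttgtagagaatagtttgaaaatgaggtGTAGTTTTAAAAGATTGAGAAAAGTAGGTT

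The share of Malat1-203 lay between 46.7% and 68.2% of the Malat1 reads in the 8 libraries of 0.5 Gy and between 64.8% and 72.5% in the 5 libraries of 0.2 Gy. The ranges of the doses overlapped. In the late libraries of 0.5 Gy, Malat1-203 differed by -0.46 (SE 0.26) and Malat1-201 by -0.52 (SE 0.16) on the log2 scale. Both differences were negative and neither transcript was called (edgeR).

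Neat1-201, the 20771-base form on which paraspeckles are built, held 53.8% of the Neat1 reads, and the 3004-base Neat1-202 held 46.2%. None of the 30-base words of Neat1-202 is its own, so that its share rests on the estimate alone. It ends at a polyadenylation signal, and the long forms of both genes end differently. Neat1-201 stops at an A-rich tract that also occurs once in Malat1-201, 292 bases before the annotated end of that transcript. In both RNAs this tract is encoded in the genome and is the strand of a triple helix that protects the 3′ end in place of a poly(A) tail. The ends are shown with the signal AATAAA or the tract AAAAAGCAAAA in capitals, all on the minus strand of chr19, because they are what sets the forms apart at the 3′ end.
Neat1-202, chr19:5842307-5842366: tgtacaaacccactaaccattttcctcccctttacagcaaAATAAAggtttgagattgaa
Neat1-201, chr19:5824708-5824767: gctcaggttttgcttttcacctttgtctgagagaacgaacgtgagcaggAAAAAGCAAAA
Malat1-201, chr19:5795982-5796041: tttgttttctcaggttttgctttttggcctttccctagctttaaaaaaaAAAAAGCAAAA

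The share of Neat1-202 was above 50% in 3 libraries only, those of 2.5 and 4 h at 0.5 Gy, with 65.2% at 2.5 h and 61.1% and 54.2% at 4 h. It was 44.5% at 6 h and between 40.7% and 49.5% in the 4 early libraries. At 0.2 Gy it lay between 26.9% and 44.4%. In the late libraries of 0.5 Gy, Neat1-202 differed by 0.30 (SE 0.25) and Neat1-201 by -0.30 (SE 0.32) on the log2 scale, and neither was called (edgeR).

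**Figure D3:**
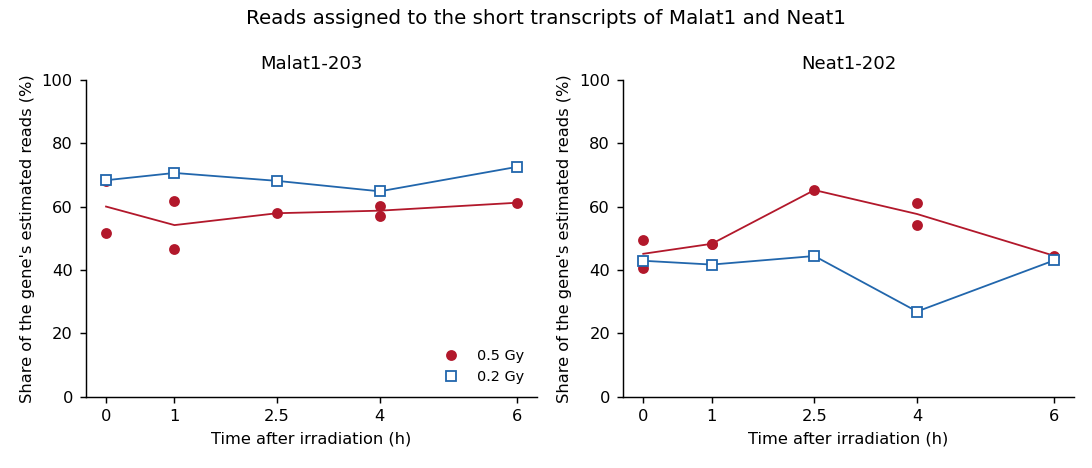
The y axis gives the percentage of the estimated reads of the gene that was assigned to Malat1-203 (left) or Neat1-202 (right), and the x axis the time after irradiation in hours. Filled circles are libraries of 0.5 Gy, open squares those of 0.2 Gy and lines join the means; Neat1-202 exceeds 50% only at 2.5 and 4 h of 0.5 Gy.

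Gas5 had the smallest adjusted p of the 8 RNAs late after 0.5 Gy. It lies on the plus strand of chr1:161034422-161038539. At 0.5 Gy it measured 502 and 434.5 CPM at 0 h, 430.15 and 392 CPM at 1 h, 338 CPM at 2.5 h, 332 and 372 CPM at 4 h and 279.5 CPM at 6 h. All 4 late libraries lay below all 4 early ones, which was so for 2.12% of the genes tested and for no other of the 8 RNAs. The late difference was -0.42 (SE 0.14, 95% interval -0.73 to -0.10, log2), from 439.8 ± 45.98 to 330.3 ± 38.1 CPM (SD, n = 4 each). It did not pass the test (edgeR unadjusted p = 0.0138, adjusted p = 0.442). At 6 h against 0 h the difference was -0.70 (SE 0.30; edgeR adjusted p = 0.826).

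At 0.2 Gy the libraries of 4 and 6 h showed the opposite order, while that of 2.5 h was the lowest of the 5. Gas5 measured 364, 303, 301, 373 and 507 CPM over the 5 time points, so that the 4 and 6 h libraries lay above those of 0 and 1 h. Such a separation upwards was found for 20.2% of all genes at this dose, with 2 against 2 libraries, and for 3 of the 8 RNAs, Malat1, Gas5 and Snhg1. None of the 8 was separated downwards, as 26.4% of all genes were. The difference was 0.40 (SE 0.21, 95% interval -0.06 to 0.86; edgeR adjusted p = 0.720), and it was 0.17 without the 6 h library. Between the doses, the change at 0.2 Gy exceeded that at 0.5 Gy by 0.82 (SE 0.27, 95% interval 0.24 to 1.40). It was not called either (edgeR unadjusted p = 0.00900, adjusted p = 0.543). The pattern of all 4 and 6 h libraries below the 0 and 1 h libraries at 0.5 Gy and above them at 0.2 Gy was found for 0.907% of 28459 genes.

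Snhg1, on the plus strand of chr19:8723475-8726443, gave late differences of the same signs as Gas5. At 0.5 Gy it measured 88.3 and 73.4 CPM at 0 h, 68.9 and 44.8 CPM at 1 h, 50.5 CPM at 2.5 h, 68.4 and 54.0 CPM at 4 h and 39.0 CPM at 6 h. The 0 h libraries were the highest, and early and late libraries overlapped. The late difference was -0.38 (SE 0.23, 95% interval -0.88 to 0.11; edgeR adjusted p = 0.651), and it was -0.24 without replicate 1 of 0 h. At 6 h against 0 h it was -1.0035 (SE 0.38; edgeR unadjusted p = 0.0285, adjusted p = 0.823). At 0.2 Gy Snhg1 measured 42.3, 44.0, 49.3, 52.96 and 70.1 CPM over the 5 time points, each higher than the one before. The difference at this dose was 0.51 (SE 0.32; edgeR adjusted p = 0.750), and it was 0.305 without the 6 h library. The difference between the doses was 0.87 (SE 0.40, 95% interval 0.0021 to 1.73; edgeR adjusted p = 0.609). None of the 8 RNAs was called for a difference between the doses by edgeR or DESeq2 and 3 had an unadjusted p under 0.05, those of Malat1, Gas5 and Snhg1. Over all 28162 genes, edgeR called 0.032% and 8.14% had an unadjusted p under 0.05, while DESeq2 called 134 of 25394. At 0.2 Gy itself none of the 8 was called by edgeR or DESeq2 and 1 had an unadjusted p under 0.05 by edgeR. Over all genes, edgeR called 0.0462% and 7.29% had such a p, while DESeq2 called 147 of 25394.

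The other host genes of snoRNAs were set beside Gas5 and Snhg1. Of 17 hosts listed, Gas5 and Snhg1 included, 14 were found in the annotation and 13 were tested. At 0.5 Gy 10 of the 13 had negative late differences, with a median of -0.10 over the list, against -0.42 for Gas5 and -0.38 for Snhg1. At 0.2 Gy 10 of the 13 had positive ones, with a median of 0.35. Over all genes tested the medians were -0.02 and -0.03. Markers of stroma had like signs, lower for 9 of 10 at 0.5 Gy and higher for 9 of 10 at 0.2 Gy. Those of granulosa cells were higher for 9 of 10 at 0.2 Gy (median 0.55) but for 5 of 10 at 0.5 Gy (median 0.04). Red blood cell markers were higher for 5 of 6 at each dose (median 0.45 at 0.5 Gy and 0.68 at 0.2 Gy). None of these markers was called by edgeR. The part of these other cells in the values of Gas5, Snhg1 and the other hosts was not tested. None of the 13 was called by edgeR at either dose, and the unadjusted p was under 0.05 for 2 at 0.5 Gy and 0 at 0.2 Gy. Snhg15, singled out after its values were seen, stood apart from the others. It went from 7.62 ± 3.14 CPM in the early to 17.8 ± 3.30 CPM in the late libraries of 0.5 Gy (SD, n = 4 each), which did not overlap. Such a separation upwards was found for 3.14% of the 22588 genes tested. The log2 difference of Snhg15 was 1.22 (SE 0.32, 95% interval 0.52 to 1.91), with an adjusted p of 0.275 by edgeR's quasi-likelihood test and 0.0171 by DESeq2. In this comparison DESeq2 called 251 of 26489 genes. At 0.2 Gy the difference of Snhg15 was 0.35 (SE 0.41).

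**Figure D4:**
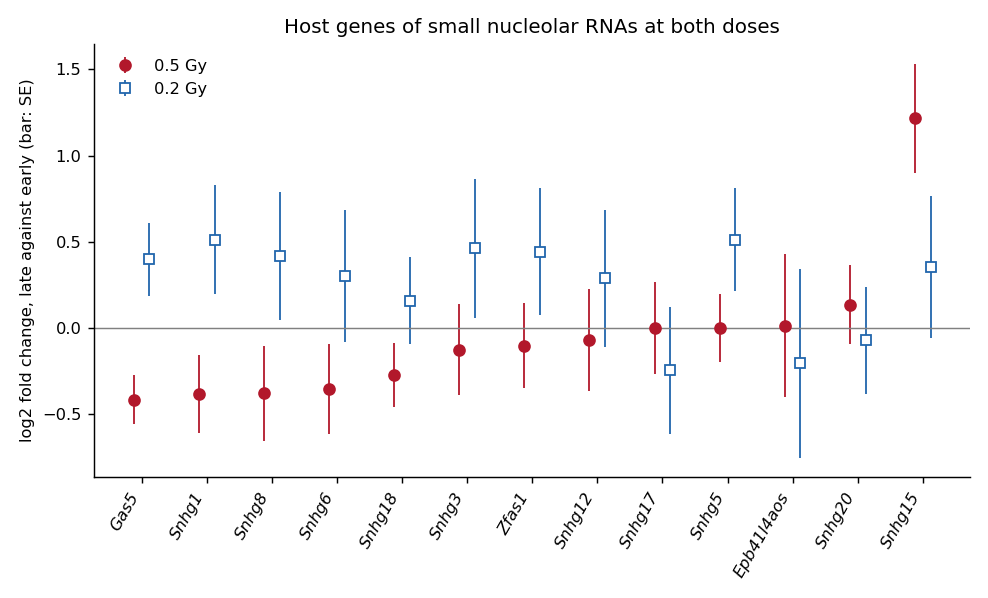
Each position on the x axis is 1 of the 13 host genes tested, ordered by the difference at 0.5 Gy, and the y axis gives the log2 fold change of late against early libraries with its SE as a bar. Filled circles (0.5 Gy) lie below 0 for 10 genes and open squares (0.2 Gy) above 0 for 10 genes, with Snhg15 at 1.22 on the right.

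The 5′ ends of Gas5 and Snhg1 are shown because hosts of snoRNAs are known for a run of pyrimidines at the start, and they are the transcripts of these genes with the longest run among those with at least 5% of the reads. Of the 5 such transcripts of Gas5, Gas5-218 also begins with 5 pyrimidines, while Gas5-221, Gas5-224 and Gas5-212 begin with a purine. Snhg1-215 held a mean of 7.35% of the Snhg1 reads, and the leading Snhg1-205 begins with a purine. Capitals mark the pyrimidines up to the first purine, 5 bases in Gas5-209 (chr1:161035166-161035762) and 3 bases in Snhg1-215 (chr19:8723487-8723526).
Gas5-209, bases 1 to 40: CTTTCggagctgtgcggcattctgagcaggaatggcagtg
Snhg1-215, bases 1 to 40: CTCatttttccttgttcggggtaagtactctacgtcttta

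Promoter windows of 300 bases from RefSeq (GRCm38.p6) were found for Gas5, Meg3, Malat1 and Snhg1. They were searched on both strands for TGACGTCA, the cyclic AMP response element, for CACGTG, the E-box bound by MYC, and for the p53 half-site. TGACGTCA occurred in 1 of 2 windows of Gas5 and 1 of 2 windows of Meg3, and in 1.79% of all 32851 windows. CACGTG and the p53 half-site, found in 7.15% and 8.36% of all windows, occurred in none of those of the 4 genes. The element is given in capitals on the plus strand of chr1:161035100-161035147 and chr12:109540919-109540966.
Gas5 promoter: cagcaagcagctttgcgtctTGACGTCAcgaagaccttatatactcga
Meg3 promoter: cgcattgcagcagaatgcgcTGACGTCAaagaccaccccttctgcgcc

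H19 had its lowest levels of 0.5 Gy at 0 h. H19, on the minus strand of chr7:142575529-142578143, measured 36.3 and 33.6 CPM at 0 h, 93.6 and 54.8 CPM at 1 h, 61.3 CPM at 2.5 h, 106 and 40.8 CPM at 4 h and 62.3 CPM at 6 h. Both replicates of 1 h and of 4 h lay above those of 0 h, as they did for 15.7% and 16.6% of the 28468 genes, and the replicates of 4 h lay far apart. Against 0 h the differences were 1.11 (SE 0.44) at 1 h and 1.10 (SE 0.44) at 4 h, with adjusted p-values of 1.00 and 0.839 by edgeR's quasi-likelihood test. They were 0.68 at 1 h without replicate 1 of 1 h, and 0.26 at 4 h without replicate 1 of 4 h. Late against early it was 0.31 (SE 0.34, 95% interval -0.44 to 1.06; edgeR adjusted p = 0.825), and it was 0.02 without replicate 1 of 4 h. At 0.2 Gy H19 measured 40.1, 48.7, 49.2, 64.4 and 44.4 CPM over the 5 time points, with a difference of 0.29 (SE 0.48).

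Meg3, on the plus strand of chr12:109541001-109571726, measured 50.9 and 41.9 CPM at 0 h, 82.6 and 73.2 CPM at 1 h, 89.3 CPM at 2.5 h, 76.5 and 41.6 CPM at 4 h and 80.4 CPM at 6 h at 0.5 Gy. Replicate 2 of 4 h lay at the level of 0 h and the other 5 libraries of later times lay above it. Against 0 h the differences were 0.77 (SE 0.33) at 1 h and 0.97 (SE 0.39) at 2.5 h, with adjusted p-values of 1.00 and 0.875 by edgeR. Late against early the difference was 0.21 (SE 0.26, 95% interval -0.36 to 0.78; edgeR adjusted p = 0.849), and it was 0.07 without replicate 2 of 0 h. At 0.2 Gy Meg3 measured 57.9, 70.4, 84.2, 81.9 and 67.9 CPM over the 5 time points, with the lowest value again at 0 h, and the difference of 4 and 6 h against 0 and 1 h was 0.22 (SE 0.35).

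The imprinted neighbors were given by library for comparison. Igf2, the insulin-like growth factor gene 72.6 kb from H19, measured 32.8 and 18.7 CPM at 0 h, 53.1 and 43.0 CPM at 1 h, 35.6 CPM at 2.5 h, 62.8 and 21.9 CPM at 4 h and 39.7 CPM at 6 h of 0.5 Gy. The 3 libraries with the highest H19 of all 13, replicate 1 of 4 h, replicate 1 of 1 h and 4 h of 0.2 Gy, were also the 3 with the highest Igf2. Late against early, Igf2 differed by 0.11 (SE 0.34). Dlk1, the gene of a Notch-like growth regulator 77.7 kb from Meg3, was at 5.78 and 9.44 CPM at 0 h and between 7.92 and 17.9 CPM in the 6 later libraries of 0.5 Gy, with a late difference of 0.31 (SE 0.34). Rian, a maternally expressed non-coding RNA 32.2 kb beyond Meg3, had its lowest level, 13.9 CPM, in replicate 2 of 4 h and a late difference of -0.45 (SE 0.27). Of the 10 imprinted neighbors listed, 8 were tested, and 0 were called or had an unadjusted p under 0.05 at either dose (edgeR). In replicate 2 of 4 h, in which H19, Meg3, Igf2, Dlk1 and Rian were each below replicate 1, the stroma markers had their lowest sum of 0.5 Gy, 2495 CPM, against 3248 CPM in replicate 1. They summed to 3041 and 2894 CPM at 0 h and to 4085 and 3732 CPM at 1 h. H19, Igf2, Meg3 and Dlk1 are abundant in embryonic and stromal tissue, and the part of such cells in these values was not tested.

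**Figure D5:**
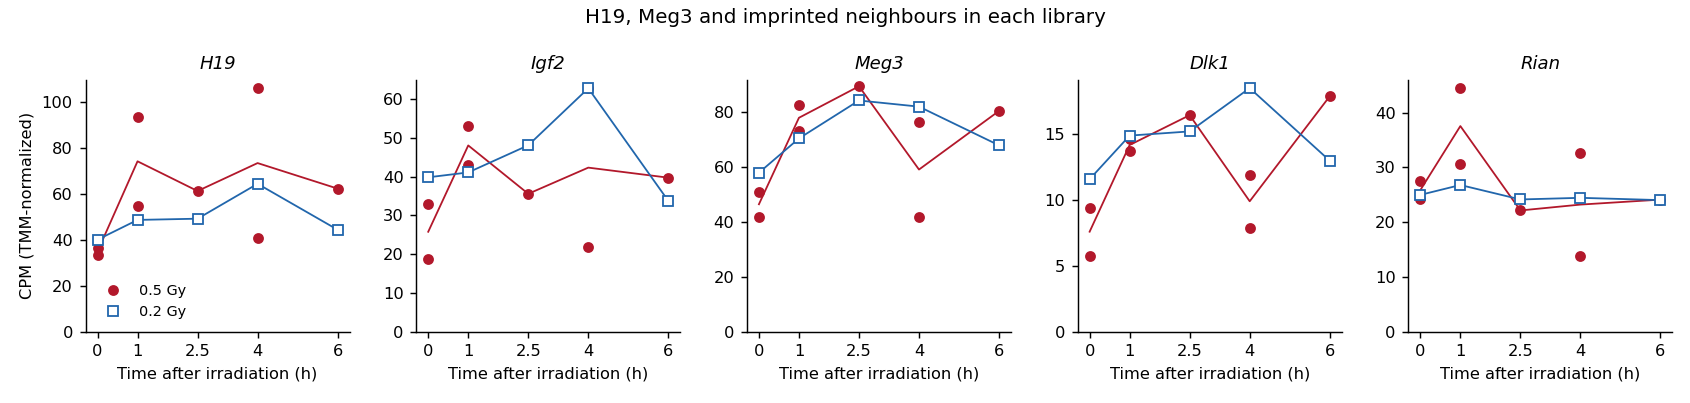
Each panel plots 1 imprinted gene, with the time after irradiation in hours on the x axis and the TMM-normalized level in CPM on the y axis, which starts at 0. Filled circles are libraries of 0.5 Gy, open squares those of 0.2 Gy and lines join the means; at 4 h of 0.5 Gy replicate 1 lies above replicate 2 for all 5 genes, as for H19 at 106 and 40.8 CPM.

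H19 is also the primary transcript of a microRNA, whose mature arms are shown with their seeds (bases 2 to 8) in capitals. The hairpin lies within H19-205, which held 32.4% of the H19 reads, and H19-206, which held 6.01%, and in none of the other 3 transcripts with at least 5% of the reads. Mir675 was counted as a gene of its own at up to 1.62 CPM, and its 30-base words overlap those of H19, so that short reads do not tell them apart. The sequences are from RefSeq, on the minus strand of chr7:142577112-142577133 and chr7:142577078-142577099.
mmu-miR-675-5p: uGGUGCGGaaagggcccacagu
mmu-miR-675-3p: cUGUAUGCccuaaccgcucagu

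Per transcript, the 8 genes had 79 transcripts in the tables, of which 54 passed the filter and 31 held at least 5% of the reads of their gene. None was called late against early at 0.5 Gy by edgeR, where 0% of the 56833 transcripts tested were called. The unadjusted p was under 0.05 for 9 of the 54 transcripts, against 5.38% of all transcripts tested. Most of the 9 were transcripts of Gas5 and the others of Snhg1 and Malat1. Transcripts of a gene share sequence, so that these are not separate observations. Gas5 had the most transcripts, 25, and its reads were spread over 3 main ones, Gas5-221 with 23.1%, Gas5-209 with 22.4% and Gas5-224 with 19.2%. Their late differences were -0.35 (SE 0.14), -0.58 (SE 0.20) and -0.23 (SE 0.33) on the log2 scale. None of the 30-base words of these 3 transcripts is its own, so that their separate shares and differences rest on the estimate alone. Of the Meg3 reads, 43.0% were assigned to Meg3-205 and 34.8% to the 14548-base Meg3-209, whose share ranged from 25.9% to 37.0% at 0.5 Gy and from 33.7% to 46.5% at 0.2 Gy. The leading transcript of Snhg1 was Snhg1-205, with a mean share of 31.9% ± 7.05 (SD, n = 13), and that of Pvt1 was Pvt1-207 with 34.7% of the reads.

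For each RNA, the 2 genes with the highest Pearson's r of log2 CPM over the 13 libraries were picked out of 28493 genes. These values are a description, since all genes share the same libraries and their depth. Malat1 was most like Prrc2c (r = 0.928), an RNA-binding protein gene, and Gm44715 (r = 0.928). For Gas5, Yipf4 had an r of 0.947, and Snhg1 was most like Mterf3 (r = 0.954) and Rpp30 (r = 0.946). For Trp53cor1 the genes were Large2 (r = 0.889) and Ufd1 (r = 0.881), and for Pvt1 they were Myf5 (r = 0.867) and B9d2 (r = 0.826). Neat1 was most like Ap1s3 (r = 0.888) and Gm3294 (r = 0.883). For Meg3 these were Gm6119 (r = 0.912) and Gm29570 (r = 0.876), and for H19 Plscr1 (r = 0.865) and Syn1 (r = 0.855). None of these genes is an imprinted neighbor or a p53 target of the lists above.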

How the data were processed

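The authors quantified 30-base paired-end reads (SMARTER kit) with salmon against Ensembl version 92 and deposited 1 table per library. Each deposited table lists 130740 transcripts with an estimated count and TPM. The build per the labels is GRCm38, and DESeq2 1.24.0 is also named there.

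From these tables, the estimated counts were summed per gene and rounded, leaving out 402 transcripts with no gene in the annotation used here (at most 0.495% of the reads). Tests used edgeR 4.0.16 (quasi-likelihood, TMM, filterByExpr) in R 4.3.3 with limma 3.58.1, over all genes with Benjamini-Hochberg adjustment. Tests at 0.2 Gy were fitted with the libraries of both doses at 0, 1, 4 and 6 h, so that their spread is shared with 0.5 Gy. Single libraries of 2.5 and 6 h at 0.5 Gy took their spread from the duplicates of other times. Calls needed a log2 fold change over 1 in size with an adjusted p under 0.05. DESeq2 1.42.0, RLE size factors, no filter, length-scaled TPM, a replicate block and leaving out each library were alternatives. TPM was used for levels between genes only. The fits were tested on simulated data: with 200 genes shifted by 3 on the log2 scale, the fit called 172 of them in the late libraries of 0.5 Gy and 98 in those of 0.2 Gy, but 104, 61, 90 and 75 at 1, 2.5, 4 and 6 h against 0 h. Unchanged genes were also called, 10 in the late libraries of 0.5 Gy, 2 in those of 0.2 Gy, 17 at 1 h and 12 at 4 h. The shift of 3 exceeds the largest difference of the 8 RNAs, 1.42, so the recovery of smaller differences was not tested. Depth was 15709549 to 30430104 estimated reads per library. Sequences came from GENCODE vM21 (GRCm38) transcripts and RefSeq (GRCm38.p6). Named genes were the 8 RNAs, their listed neighbors and, per RNA, the most similar 2 genes, of which 1 is not reported here. Tables of the authors' own comparisons and normalized means were not used. The members and lists were chosen with earlier results of these data known.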

Additional observations from a re-analysis of the deposited data

Results flagged for a closer look

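Gas5 was picked out because all its 4 and 6 h libraries lay below the 0 and 1 h libraries at 0.5 Gy and above them at 0.2 Gy. The change at 0.2 Gy minus that at 0.5 Gy was 0.823 (SE 0.267, log2), with an unadjusted p of 0.00900 and an adjusted p of 0.543 by edgeR's quasi-likelihood test. This pattern was held by 258 of 28459 genes, and the opposite pattern by 251. The dose and the third generation of libraries cannot be told apart.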

How the results depend on the processing

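No member was called in any comparison under any alternative that was run. Over all genes, calls at 1, 2.5, 4 and 6 h against 0 h went from 0 by edgeR to 31, 109, 141 and 148 by DESeq2 and to 30, 56, 80 and 78 without the filter on low counts. Late against early at 0.5 Gy, 29 calls became 251 by DESeq2, 58 without the filter and 10 to 37 with 1 library left out. At 0.2 Gy, 13 became 147 by DESeq2 and 32 without the filter, and for the difference between the doses 9 became 134 and 22. For 0.2 against 0.5 Gy, 1 became 222 and 52. Snhg15 passed the test by DESeq2 (log2 fold change 1.22, adjusted p = 0.0171). The sign of Neat1 at 0.2 Gy was reversed with length-scaled TPM (-0.12). With 1 library left out, signs were reversed within the ranges -0.109 to 0.174 for Neat1 and -0.178 to 0.34 for Igf2 late against early at 0.5 Gy, and -0.0675 to 1.07 for Pvt1, -0.214 to 0.341 for Neat1 and -0.0134 to 0.547 for H19 at 0.2 Gy. The cause was not tested. Deviations of same-numbered libraries correlated at 0.13, 0.0784 and 0.109, and what the generations in the labels share is not stated, so the samples were not taken as paired. With the replicate block the late difference of Gas5 was -0.38 and that of Malat1 -0.48, and the calls over all genes late against early were 18 in place of 29. Against 0 h, where 0 genes were called without it, the block gave 0, 1, 6 and 7 calls at 1, 2.5, 4 and 6 h, none of them a member. With 7 to 85 reads per library, Trp53cor1 is limited by depth, and at 2.5 and 6 h and at each time of 0.2 Gy there was 1 library.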
